A study of Homo sapiens with 18 samples.

Results

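The 102 probe sets described here carry, as their only gene symbol in the annotation of the array, a symbol that begins with EIF1, EIF2, EIF3, EIF4, EIF5, EIF6 or EEF, and they were chosen by that symbol alone. They are the factors that start and elongate protein chains on cytosolic ribosomes, with the kinases, binding proteins and methyltransferases named after them, and they stand for 50 genes among 22215 probe sets without controls. On 3 or more arrays 96 of them, for 48 genes, read 50 or higher, and so they were tested among 15572 probe sets. The other 6 were 1 probe set each of EIF3F, EIF4G2, EIF5B and EEF1AKMT2, for which only that of EEF1AKMT2 was the gene's sole probe set, and both of the Y-linked EIF1AY, whose level is not given. On all 18 arrays the signal was at least 50 for 89 of the tested members.

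SK-N-MC, a human line that the labels call neuroepithelioma, was grown in medium without pyruvate with ethanol as vehicle, with 5 nM rotenone, a dose described as sublethal, or with 50 nM, described as slightly toxic. Rotenone is a pesticide that inhibits complex I of the mitochondrial respiratory chain and also acts on microtubules. RNA was taken after 1 week and after 4 weeks, giving early groups (1w0 nM, 1w5 nM and 1w50 nM) and late groups (4w0 nM, 4w5 nM and 4w50 nM) with 3 Affymetrix arrays in each. In every one of 3 experiments the dishes of a condition were pooled into 1 sample, so the arrays of a group stand for separate experiments on 1 cell line, and p-values measure the spread among them. Signals are the linear expression indexes that the authors computed, listed below in the order of replicates 1, 2 and 3. A probe set is said to rise or fall, or to be called, where the adjusted p of limma was below 0.05, with each dose set against the vehicle of its own week. Both doses of a week share these vehicle arrays.

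Several arrays stood apart. Over the tested members, the median distance of an array from the mean of its group's other arrays was 0.225 on the log2 scale for 1w0 nM replicate 3 and 0.28 for 4w5 nM replicate 3, against 0.062 to 0.196 for the remaining 16 arrays. The 1-week group means listed by the study fit the deposited signals with one array of each rotenone group exchanged, namely 1w5 nM replicate 2 and 1w50 nM replicate 3. Groups here follow the labels, and counts at 1 week are also given with these arrays exchanged. On the 6 rotenone arrays of 4 weeks, the 18 hybridization control probe sets, which report RNA spiked in at hybridization, averaged 8.69 to 9.10 on the log2 scale, against 9.69 to 10.12 on the other 12 arrays. The 3' to 5' log2 ratio of the ACTB control probe sets was -0.06 ± 0.03 (SD, n = 3) with vehicle at 4 weeks, rising to 0.05 ± 0.05 with 5 nM and 0.17 ± 0.04 with 50 nM. Ewing family markers such as CD99 and NKX2-2 were on the array and tested for 6 genes, of which CD99, CCND1 and PRKCB fell in 4w50 nM (log2 fold change -0.55, -0.92 and -0.58) and PRKCB in 4w5 nM (-0.50). At 1 week CCND1 and PRKCB rose with 5 nM (0.73 and 0.49) and with 50 nM (0.71 and 0.48), while STEAP1 fell with 50 nM (-0.33). Of the 7 sympathetic neuroblast markers on the array TH, PHOX2A and HAND2 did not reach the signal minimum, and GATA3 and CHGA fell in 4w50 nM (-0.72 and -0.79). ISL1 was not called there against vehicle (0.41) and was higher with 50 nM than with 5 nM (0.91), and DBH was called with neither dose at 4 weeks. In 1w50 nM DBH and GATA3 rose (0.84 and 0.41). Of 6 neuronal markers on the array 4 were tested, and DCX fell with 5 nM at 4 weeks (-1.68) and was 5.85-fold higher with 50 nM than with 5 nM. DCX rose with 50 nM at 1 week (1.20). Fibroblast markers, all 7 tested and none at 0, averaged 8.90 to 8.93 (log2) on the vehicle arrays of 4 weeks, 8.79 to 8.90 with 5 nM and 7.79 to 8.26 with 50 nM. With 5 nM this average hid changes in both directions, since LUM rose (1.83) and COL1A2, PDGFRB and COL1A1 fell (-1.54, -0.98 and -0.76), and 4 of the 7 fell with 50 nM. At 1 week the same list averaged 7.35 to 8.62 with vehicle, 9.02 to 9.07 with 5 nM and 8.66 to 8.98 with 50 nM. Of 3 macrophage markers on the array, CD14 and CSF1R did not reach the minimum, and AIF1 lay between 6.58 and 9.53 (log2) on the vehicle arrays of 1 week, 6.65 and 7.63 with 5 nM, and 6.93 and 7.49 with 50 nM. At 4 weeks AIF1 lay between 5.84 and 6.67 with vehicle, 4.92 and 5.70 with 5 nM, and 8.16 and 9.44 with 50 nM. The part of these differences in the results that follow was not tested. In pooled cells, a change in the kinds of cells present and a change in RNA per cell cannot be told apart.

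In the textbook account of translation, eIF4E binds the cap at the 5' end of an mRNA, eIF4G is the scaffold that joins it to the helicase eIF4A and its helpers eIF4B and eIF4H, and eIF3 links this assembly to the small ribosomal subunit. eIF2 brings the initiator tRNA, is recharged with GTP by eIF2B and is switched off by stress kinases that phosphorylate its alpha subunit, while 4E-BP1 withholds eIF4E from eIF4G until mTOR phosphorylates it. After eIF1 and eIF1A have overseen the choice of the start codon, eIF5 and eIF5B bring the ribosome together, eEF1A delivers aminoacyl-tRNA and eEF2 moves the ribosome on.

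EIF4E and EIF4G1, partners in cap binding that moved in opposite directions after 4 weeks with 50 nM, both carry the E-box letters CACGTG at 2 places in the 250 bases before a start site listed by RefSeq. For EIF4E on chromosome 4 (GRCh38.p14, minus strand, chr4:98929134-98929383) these letters begin 225 and 72 bases before the start. For EIF4G1 on chromosome 3 (plus strand, chr3:184314356-184314605), which has several listed starts, they begin 144 and 67 bases before the start with the letters. Both stretches are shown so that the shared letters, in capitals, can be seen beside the opposite signals.
EIF4E: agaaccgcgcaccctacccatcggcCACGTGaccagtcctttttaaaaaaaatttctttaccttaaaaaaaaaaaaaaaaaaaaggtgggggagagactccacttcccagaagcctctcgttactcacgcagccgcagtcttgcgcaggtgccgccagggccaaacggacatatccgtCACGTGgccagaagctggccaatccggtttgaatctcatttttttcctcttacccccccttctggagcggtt
EIF4G1: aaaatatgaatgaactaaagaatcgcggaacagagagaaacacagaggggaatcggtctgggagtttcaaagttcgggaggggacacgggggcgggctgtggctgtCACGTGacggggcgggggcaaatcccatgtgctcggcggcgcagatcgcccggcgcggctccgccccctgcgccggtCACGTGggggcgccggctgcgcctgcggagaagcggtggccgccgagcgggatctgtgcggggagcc
The letters read the same on both strands. A promoter was listed for 37 member genes, and CACGTG stood within 250 bases before a start in 11 of them (29.7%), against 7.73% of 27305 genes in the table. At 2 or more places it stood in EIF4E, EIF4G1 and EIF5A2, and in 0.652% of all genes. Of the 11 genes, 3 had a probe set that rose in 4w50 nM (EIF4E, EIF4B and EIF1B) and 1 had probe sets that fell (EIF4G1). Among all 48 tested member genes, 12 had a probe set that rose there and 9 had one that fell. A promoter was listed for only 37 member genes, so these counts are not matched. Whether the letters go with the changes was not tested.

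Messages of the translation machinery often begin with a C followed by a run of pyrimidines. A start with C and then 4 bases that are each C or T was listed for 9 of the 37 genes (24.3%), against 5.14% of all genes. The 25 bases around the start, 15 before it and 10 from it on, are shown for elongation factors that were not called and for initiation factors that rose or fell, with the first 5 transcribed bases in capitals. They lie at chr6:73521023-73521047 (minus strand), chr19:3985454-3985478 (minus), chr12:53006441-53006465 (plus), chr11:32583816-32583840 (plus) and chr19:38619173-38619197 (plus) of GRCh38.p14.
EEF1A1: gtcgccgtgaacgttCTTTTtcgca
EEF2: gttgacgtcagcgttCTCTTccgcc
EIF4B: ttgcctcatccgggtCTTTTgcgtt
EIF3M: gcgcggcccagttccCTTTTccggt
EIF3K: ttccgtttccaccacCTCTTcctgt
Among the 9 genes, EIF4B and EIF3M had probe sets that rose in 4w50 nM and none had one that fell, beside 12 and 9 of all 48 tested member genes. A match of letters describes the listed start and is no test of regulation.

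Taken as a family, the translation factors moved about as often as other probe sets. After 1 week with 5 nM, 2 member probe sets rose and 3 fell, against 5.08% and 1.93% of all probe sets tested. With 50 nM for 1 week, 4 rose (all probe sets, 8.39%) and 17 fell (13.2%), that is 4.17% and 17.7% of the members. At 4 weeks, 5 nM raised 17 members and lowered 9, which is 17.7% and 9.38%, where 17.7% of all probe sets rose and 14.2% fell. The 50 nM dose at 4 weeks raised 21 (21.9%) and lowered 11 (11.5%), beside 22.3% and 17.9% of all. Between the doses at 4 weeks, 6 members were higher with 50 nM and 8 lower, against 9.27% and 6.64%, and at 1 week limma called none, where 11 members had an unadjusted p below 0.05 and 0.00642% of all probe sets (1 of 15572) were called. The vehicle groups of 1 and 4 weeks differed in 1 member, against 3.26% of all. The shares are near the background, so the family as such did not stand out in number.

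Against vehicle at 4 weeks, changes were also small. The median absolute log2 fold change of the members in 4w50 nM was 0.229, against 0.364 over all probe sets, and 3 members reached 2-fold there. In 4w5 nM these medians were 0.221 and 0.319, but between the doses at 4 weeks they were 0.223 and 0.216. Members and other probe sets were not matched for brightness, so the medians are a description only. Among the called members the signals of the groups compared did not overlap for 30 of 32 in 4w50 nM, 23 of 26 in 4w5 nM and 18 of 21 in 1w50 nM. A call favours groups that do not overlap, and the share over all called probe sets was not counted. The counts therefore only describe the calls. In total 25 probe sets of 17 genes were called with at least 1.5-fold in a dose comparison, and 39 tested members were called in none of the 4 comparisons with vehicle. These counts and that at 2-fold were not made over all probe sets, so they do not set the family apart. Called counts of the members depended on single arrays, and the share of all probe sets called in these fits was not counted. With 5 nM at 1 week the 5 calls became 2 without 1w0 nM replicate 1 or 1w5 nM replicate 1, 1 without 1w5 nM replicate 2, 3 without 1w5 nM replicate 3 and 8 without 4w5 nM replicate 3. Without 1w0 nM replicate 3, 31 members were called in 1w50 nM, and without 1w50 nM replicate 1 or 2 there were 11 or 13. In 4w5 nM the 26 calls became 14, 15 and 12 without replicates 1, 2 and 3 of 4w0 nM, and 21 without 4w5 nM replicate 3. In 4w50 nM the 32 calls became 19 without 4w0 nM replicate 1 or without 4w50 nM replicate 1. Between the doses at 4 weeks the 14 calls became 6 without 4w5 nM replicate 2, 7 without 4w50 nM replicate 1 and 24 without 1w0 nM replicate 3, and without that array 2 members were called between the doses at 1 week. With the 1-week arrays exchanged, the 5 nM dose gave 1 higher and 4 lower members, and the 50 nM dose 10 higher and 12 lower. Quantile normalization turned the split in 4w5 nM to 13 higher and 17 lower, and median scaling to 20 and 4. These scalings gave 2 and 5 or 2 and 6 for 5 nM at 1 week.

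**Figure D1:**
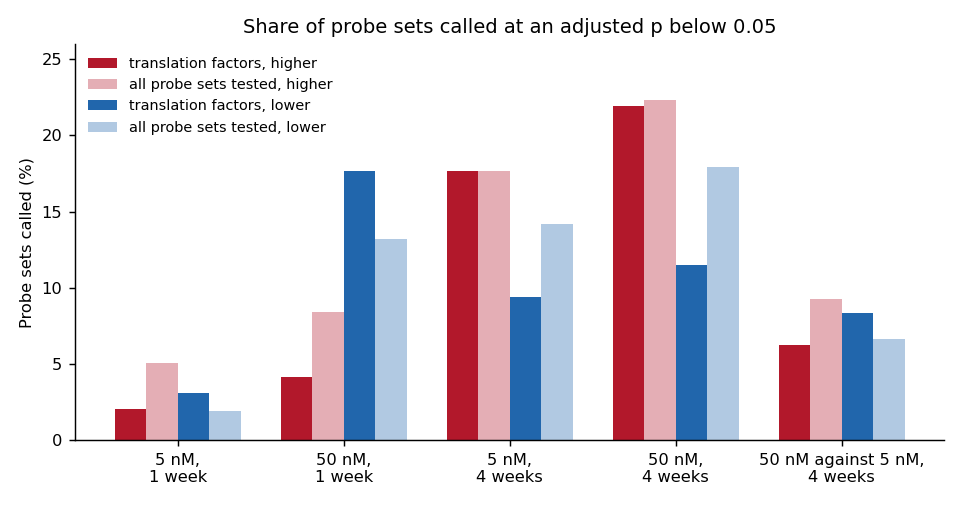
Percent of probe sets called higher (red) or lower (blue) at an adjusted p below 0.05 in 5 comparisons, for the 96 tested translation factor probe sets (full colour) and for all 15572 tested (pale). The members sit at 21.9% higher and 11.5% lower with 50 nM at 4 weeks, beside 22.3% and 17.9% of all probe sets.

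The cap-binding group held the largest changes at 4 weeks, in opposite directions for different subunits. Of its 14 tested probe sets for 7 genes, 5 rose in 4w50 nM (EIF4E and EIF4B) and 2 fell (both of EIF4G1), and in 4w5 nM 4 rose (again EIF4E and EIF4B) and none fell. Of all probe sets tested, 22.3% rose and 17.9% fell in 4w50 nM, and 17.7% and 14.2% did so in 4w5 nM. Counts by role include several probe sets of the same gene and are a description only. The median of the group was 0.21 (log2) in 4w50 nM, against 0.01 over all probe sets.

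EIF4E, the cap-binding protein itself, rose with both doses at 4 weeks on all 3 of its probe sets. On 201437_s_at the signal at 4 weeks was 275, 271 and 245 with vehicle, 748, 638 and 541 with 5 nM and 720, 619.7 and 590.3 with 50 nM. Every rotenone array of 4 weeks lay well above every vehicle array. The log2 fold change was 1.27 ± 0.14 SE, adjusted p = 7.48e-06 with 5 nM (2.42-fold) and 1.28 ± 0.14 SE, adjusted p = 5.36e-06 with 50 nM (2.43-fold), and between the doses it was 0.01 (adjusted p = 0.977). At 1 week the same probe set read 299.6, 317 and 288 with vehicle, 320.4, 259 and 313 with 5 nM and 177, 201 and 201 with 50 nM. Here 50 nM lay below all vehicle arrays, a fall (log2 fold change -0.65 ± 0.14 SE, adjusted p = 0.00359), and 5 nM overlapped vehicle.

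The second EIF4E probe set, 201435_s_at, read 1009.7, 1167 and 938 with vehicle at 1 week, 773, 573 and 606 with 5 nM and 487, 529 and 692 with 50 nM. Both doses lay under the vehicle arrays (log2 fold change -0.68 ± 0.18 SE, adjusted p = 0.0329 and -0.88 ± 0.18 SE, adjusted p = 0.00325), the first lost without replicate 1 or 2 of 1w0 nM and without replicate 2 or 3 of 1w5 nM (log2 -0.70 to -0.59). At 4 weeks it read 734, 782 and 811 with vehicle, 1333, 1310.2 and 790.5 with 5 nM and 1108, 1211 and 993 with 50 nM. The rises of 0.52 (adjusted p = 0.0374) and 0.50 (adjusted p = 0.0363) rested on few arrays, since 4w5 nM replicate 3 fell among the vehicle values, and each call was lost in 5 of the 18 fits that left out 1 array (any vehicle array of 4 weeks, or replicate 1 or 2 of the dose), with values of 0.39 to 0.55 and 0.44 to 0.54. Quantile normalization ended both calls as well (0.41, adjusted p = 0.107, and 0.43, adjusted p = 0.0802). For 201436_at the 4-week signals were 232, 238 and 216 with vehicle, 466, 379 and 239 with 5 nM and 519, 475 and 339 with 50 nM. Rotenone lay above vehicle on every array here, narrowly for 4w5 nM replicate 3. The rise with 50 nM was 0.94 ± 0.22 SE, adjusted p = 0.00274, and the rise with 5 nM, 0.61 ± 0.22 SE, adjusted p = 0.0435, was lost in 11 of the fits without 1 array, with values of 0.40 to 0.64. Its 1-week signals were 273, 216 and 333 with vehicle, 214, 193 and 218 with 5 nM and 161, 204 and 226 with 50 nM, where neither dose was called.

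EIF4G1, the scaffold that eIF4E binds, fell only where 50 nM was given for 4 weeks among the comparisons with vehicle. On 208624_s_at the signals at 4 weeks were 1032, 963 and 987 with vehicle, 947, 969 and 676 with 5 nM and 521, 393 and 561 with 50 nM. All 50 nM arrays lay below all others of that week. The fall was -1.03 ± 0.24 SE, adjusted p = 0.00218 (2.04-fold), and against 5 nM it was -0.81 ± 0.24 SE, adjusted p = 0.0255. At 1 week the probe set read 993, 972 and 455 with vehicle, 715, 673 and 782 with 5 nM and 689.5, 620.4 and 859 with 50 nM, with 1w0 nM replicate 3 far below its group. The second probe set, 208625_s_at, read 2468, 2282 and 2215 with vehicle, 2529.9, 2746 and 1994 with 5 nM and 1665, 1223 and 1998 with 50 nM at 4 weeks. Its fall was -0.54 ± 0.16 SE, adjusted p = 0.0139, lost without 4w0 nM replicate 1 or 4w50 nM replicate 2 (log2 -0.49 to -0.35). Against 5 nM the 2 falls were each lost without replicate 1 or 2 of 4w5 nM or of 4w50 nM, with values of -0.86 to -0.66 for 208624_s_at and -0.62 to -0.40 for 208625_s_at.

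EIF4B, a helper of the cap-bound helicase, rose on 2 of its 3 probe sets. 211938_at read 2454, 2220.3 and 2212 with vehicle, 2895, 2874 and 3889.9 with 5 nM and 4264, 4247 and 3208 with 50 nM at 4 weeks, so that all rotenone arrays lay above all vehicle arrays. The rises were 0.47 ± 0.13 SE, adjusted p = 0.00932 and 0.76 ± 0.13 SE, adjusted p = 0.000208, the first lost without 4w5 nM replicate 3 (log2 0.33). 211937_at rose with 50 nM (log2 fold change 0.54 ± 0.12 SE, adjusted p = 0.00203). The remaining probe set, 219599_at, behaved in another way. It read 268, 323 and 316 with vehicle at 1 week, 199, 181 and 145 with 5 nM and 132, 123 and 163 with 50 nM, and it fell (log2 fold change -0.80 ± 0.17 SE, adjusted p = 0.0106 and -1.12 ± 0.17 SE, adjusted p = 0.000406). At 4 weeks it read 159, 199 and 212 with vehicle, 190.2, 184 and 227 with 5 nM and 244, 248 and 176 with 50 nM, and neither dose was called. It was also the 1 member that differed between the vehicle groups, lower at 4 weeks (log2 fold change -0.67 ± 0.17 SE, adjusted p = 0.0388). That call was lost in 6 of the 18 fits without 1 array, among them those without any array of 4w0 nM, and the 5 nM call was lost without 1w5 nM replicate 3 (log2 -0.67).

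The other members of the group were called once. EIF4G2, a relative of eIF4G that lacks the eIF4E site, read 4253, 4046 and 3934 with vehicle, 5357, 4694 and 3942 with 5 nM and 4714, 4347 and 4941 with 50 nM at 4 weeks and was called with neither dose at either week, nor were EIF4H and the 3 probe sets of EIF4E2. EIF4A3, the helicase of the exon junction complex, rose (log2 fold change 0.40 ± 0.12 SE, adjusted p = 0.0197) with 50 nM at 1 week.

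**Figure D2:**
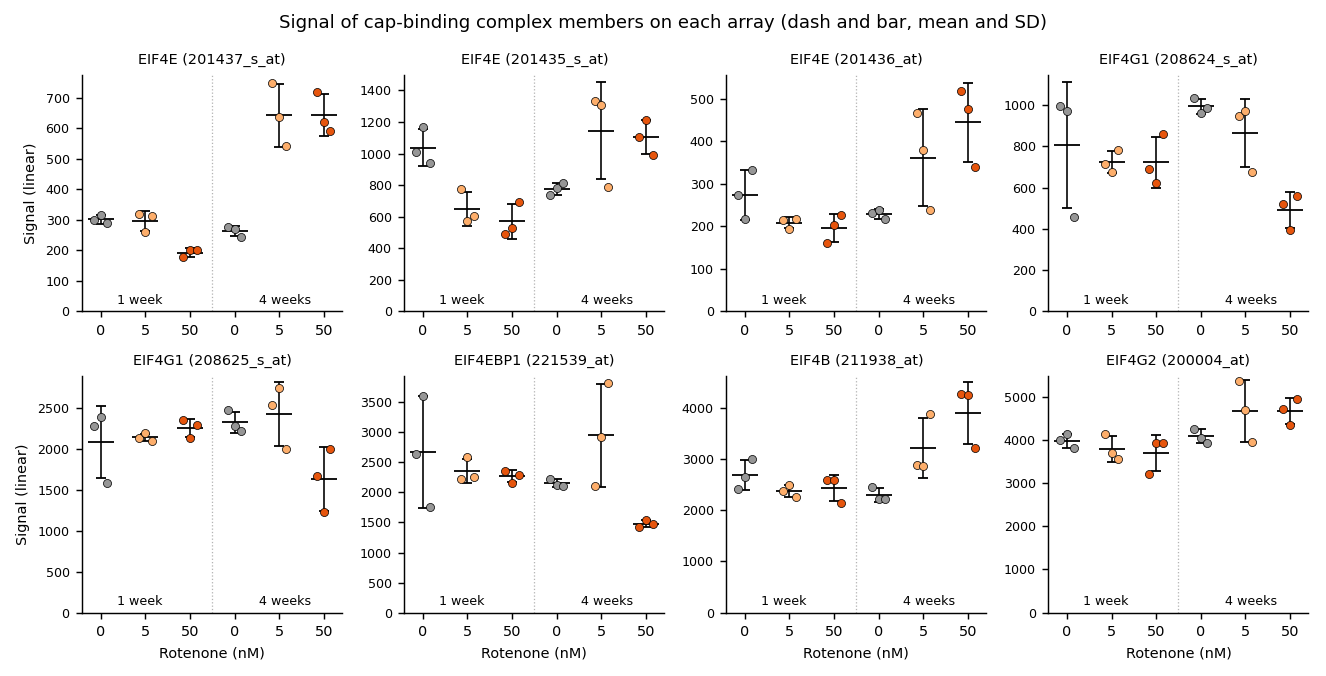
Signal (linear, from 0) of 8 probe sets of cap-binding members on each of the 18 arrays, by rotenone dose in nM, with 1 week at the left and 4 weeks at the right of each panel; points are arrays, dashes and bars the mean and SD of 3. EIF4E lies above vehicle at 4 weeks on 201437_s_at with both doses, whereas EIF4G1 and EIF4EBP1 lie below it in 4w50 nM.

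Among the 4 probe sets of eIF4E regulators, 2 fell in 4w50 nM (all probe sets, 17.9%) and none was called with 5 nM at 4 weeks. EIF4EBP1, which encodes 4E-BP1, read 2229, 2124 and 2106 with vehicle at 4 weeks, 2105, 2918 and 3823 with 5 nM and 1427, 1538 and 1473 with 50 nM. The 50 nM arrays lay together below the rest, while those of 5 nM spread upward from the vehicle level. The difference between doses was -0.95 ± 0.20 SE, adjusted p = 0.00402 (1.94-fold), and against vehicle the fall was -0.54 ± 0.20 SE, adjusted p = 0.0389, a call lost without any one of the 6 arrays compared (log2 -0.57 to -0.52). At 1 week its signals were 2646, 3614 and 1752 with vehicle, 2219.6, 2594 and 2263 with 5 nM and 2361, 2165 and 2298 with 50 nM, where the vehicle arrays alone spanned the others. EIF4EBP2, a second binding protein, fell (log2 fold change -0.38 ± 0.14 SE, adjusted p = 0.0414) on 208770_s_at.

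eIF3, the largest of the initiation complexes, split by subunit. Of 21 probe sets for 12 genes, 6 rose and 4 fell in 4w5 nM, 6 rose and 2 fell in 4w50 nM, and in 1w50 nM 3 fell and none rose. Over all probe sets the shares that rose and fell were 17.7% and 14.2%, 22.3% and 17.9%, and 8.39% and 13.2% in these groups. EIF3A, its largest subunit, read 584, 678 and 631 with vehicle, 887, 748 and 1239.9 with 5 nM and 1457, 1300 and 1073 with 50 nM at 4 weeks on 200595_s_at. The doses lay above vehicle without overlap (log2 fold change 0.57 ± 0.15 SE, adjusted p = 0.00841 with 5 nM and 1.01 ± 0.15 SE, adjusted p = 7.71e-05, or 2.01-fold, with 50 nM). At 1 week it read 708, 789.7 and 747 with vehicle, 633, 670.1 and 643 with 5 nM and 482, 471 and 441 with 50 nM, and 50 nM fell below vehicle (log2 fold change -0.69 ± 0.15 SE, adjusted p = 0.00458). On 200597_at the signals of 4 weeks were 190.1, 175 and 175 with vehicle, 201, 201 and 252 with 5 nM and 412, 328 and 304 with 50 nM. There 50 nM lay above both other groups (log2 fold change 0.94 ± 0.14 SE, adjusted p = 6.01e-05 against vehicle and 0.67 ± 0.14 SE, adjusted p = 0.00364 against 5 nM). Its 1-week signals were level, at 160.5, 159 and 194 with vehicle, 171, 158 and 149 with 5 nM and 153, 162 and 155 with 50 nM. The third, 200596_s_at, is the brightest probe set of EIF3A. It was not called against vehicle (log2 -0.35 with 5 nM and 0.21 with 50 nM at 4 weeks) and was higher with 50 nM than with 5 nM (log2 fold change 0.57, adjusted p = 0.00922).

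EIF3J, a loosely bound subunit near the decoding centre, rose with both doses on both probe sets. 208985_s_at read 562, 561 and 479 with vehicle, 962, 883 and 916 with 5 nM and 751, 703 and 710 with 50 nM, and rose (log2 fold change 0.79 ± 0.12 SE, adjusted p = 0.000171 and 0.44 ± 0.12 SE, adjusted p = 0.00955), the second lost without 4w0 nM replicate 3 (log2 0.36). At 1 week 50 nM had lowered it (log2 fold change -0.55 ± 0.12 SE, adjusted p = 0.00523), from 671, 724 and 518 to 407, 441 and 450.1. EIF3M rose in 4w50 nM on 202231_at (0.38) and 202232_s_at (0.45), and the latter had fallen in 1w50 nM (log2 fold change -0.50, adjusted p = 0.00448). Its remaining probe set, 215190_at, was dim and had the opposite sign without a call (-0.34, adjusted p = 0.166, in 4w50 nM, and 0.46, adjusted p = 0.0881, in 1w50 nM). EIF3G and EIF3K went the other way. EIF3G, which contacts mRNA and eIF4B, read 1211, 1275 and 1293 with vehicle, 877, 879 and 952 with 5 nM and 1030.3, 1116 and 924 with 50 nM, a fall (log2 fold change -0.48 ± 0.12 SE, adjusted p = 0.00431 and -0.30 ± 0.12 SE, adjusted p = 0.0445). All 3 EIF3K probe sets fell with 5 nM (-0.34, -0.39 and -0.42, highest adjusted p = 0.0349) and none with 50 nM. EIF3E, an outer subunit, read 3684, 3995 and 3931 with vehicle, 4376, 4387 and 4874 with 5 nM and 4278, 4261 and 3507 with 50 nM at 4 weeks and rose with 5 nM (log2 fold change 0.23, adjusted p = 0.0298), a call lost without 4w0 nM replicate 1 or 3, or without 4w5 nM replicate 3 (log2 0.18 to 0.24). Its 1-week arrays read 4024, 4473 and 3927 with vehicle, 4038, 3994 and 3927 with 5 nM and 3812, 3839 and 3945 with 50 nM. EIF3H rose with 5 nM (log2 fold change 0.29, adjusted p = 0.044) and was lower with 50 nM than with 5 nM (log2 fold change -0.37 ± 0.11 SE, adjusted p = 0.0238). EIF3B had 1 of 3 probe sets called in 4w50 nM, lower (log2 fold change -0.29), and EIF3D, EIF3F, EIF3I and EIF3L were called with neither dose at 4 weeks.

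**Figure D3:**
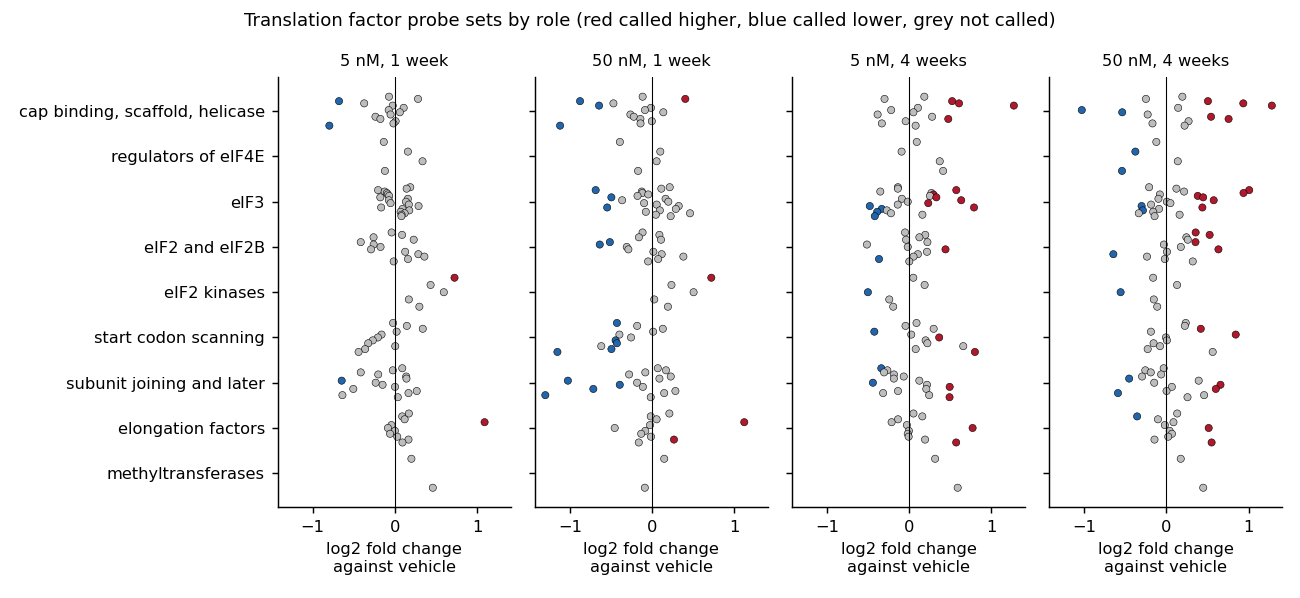
Log2 fold change against the vehicle of the same week for each of the 96 tested member probe sets, 1 panel a dose and week, grouped by role from top to bottom; red was called higher, blue lower and grey not called. With 50 nM at 4 weeks the cap-binding row spans -1.03 (EIF4G1) to 1.28 (EIF4E).

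With 50 nM at 4 weeks, probe sets of the alpha and beta subunits of eIF2 rose, while the exchange factor eIF2B had 1 subunit that rose and 1 that fell. Of 13 probe sets for 9 genes, 4 rose and 1 fell in 4w50 nM (all probe sets, 22.3% and 17.9%), and 1 rose and 1 fell in 4w5 nM (17.7% and 14.2%). EIF2S2, the beta subunit, read 2556, 2345 and 2187 with vehicle, 2940, 3176 and 3511 with 5 nM and 4074, 3894 and 3079 with 50 nM on 208726_s_at. Rotenone lay above vehicle on every array (log2 fold change 0.44 ± 0.13 SE, adjusted p = 0.0123 and 0.63 ± 0.13 SE, adjusted p = 0.000735), the first lost without 4w0 nM replicate 3 or 4w5 nM replicate 3 (log2 0.37 to 0.39). At 1 week it read 2461, 2474 and 3511 with vehicle, 2264, 2174 and 2375 with 5 nM and 2238, 2279 and 2302 with 50 nM and was not called. The dimmer 208725_at of EIF2S2 was called with neither dose at 4 weeks (-0.02 with 5 nM, and 0.17, adjusted p = 0.433, with 50 nM). EIF2S1, the alpha subunit that stress kinases phosphorylate, rose in 4w50 nM on 201142_at (0.36 ± 0.11 SE, adjusted p = 0.0138) and 201143_s_at (0.53 ± 0.12 SE, adjusted p = 0.00268) but was not called on 201144_s_at (0.24). EIF2B5, the catalytic subunit of the exchange factor, read 366, 357 and 324 with vehicle, 363, 393 and 369 with 5 nM and 215, 216 and 237 with 50 nM at 4 weeks. The 50 nM arrays lay well below the rest (log2 fold change -0.65 ± 0.18 SE, adjusted p = 0.0083 against vehicle and -0.75 ± 0.18 SE, adjusted p = 0.00883 against 5 nM), and both calls held in every fit without 1 array. Its 1-week signals were 386, 432 and 224 with vehicle, 399, 433 and 392 with 5 nM and 341, 412 and 339 with 50 nM, with 1w0 nM replicate 3 again the lowest. EIF2B2 fell with 50 nM at 1 week (-0.51, adjusted p = 0.0129) and rose at 4 weeks (0.35, adjusted p = 0.048). EIF2S3 fell in 1w50 nM (log2 fold change -0.64 ± 0.21 SE, adjusted p = 0.0349), lost without replicate 1 or 2 of either group compared (log2 -0.69 to -0.47). EIF2D, which can load initiator tRNA without eIF2, was lower in 4w5 nM (log2 fold change -0.37, adjusted p = 0.0171). EIF2B1, EIF2B3 and EIF2B4 were called with neither dose.

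Of the kinases that phosphorylate eIF2, EIF2AK2 (PKR, which answers to double-stranded RNA) rose with both doses at 1 week on 204211_x_at. It read 356, 502 and 348 with vehicle, 724, 663 and 585 with 5 nM and 632, 759 and 579 with 50 nM, and the vehicle arrays lay below all others. The rises were 0.73 ± 0.17 SE, adjusted p = 0.018 and 0.72 ± 0.17 SE, adjusted p = 0.00723, the first lost without 1w0 nM replicate 1 or 1w5 nM replicate 1 or 2 (log2 0.65 to 0.72). At 4 weeks it read 581, 640 and 556 with vehicle, 619, 489 and 756 with 5 nM and 556, 575 and 461 with 50 nM, with no call, and its second probe set was called nowhere against vehicle. EIF2AK1 (HRI, the haem-regulated kinase) fell at 4 weeks on 217735_s_at (log2 fold change -0.50 ± 0.18 SE, adjusted p = 0.0443 and -0.56 ± 0.18 SE, adjusted p = 0.0221). On 217736_s_at it read 1187, 1297 and 1351 with vehicle, 1094, 1066 and 1075 with 5 nM and 1164, 1076 and 1206 with 50 nM at 4 weeks and 1243, 1273 and 1117 with vehicle, 1255, 1540.2 and 1302 with 5 nM and 1208, 1283 and 1205 with 50 nM at 1 week, and was not called. EIF2AK3 (PERK, the kinase of the endoplasmic reticulum) was called with neither dose, its log2 fold changes lying between -0.20 and 0.30.

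EIF1, which keeps the scanning ribosome from stopping at wrong codons, fell after 1 week with 50 nM on 4 of its 6 probe sets. One of them, 211956_s_at, read 5301, 6460.2 and 5026 with vehicle, 4809.5, 4359 and 4696 with 5 nM and 4138, 3954 and 4175 with 50 nM. Every 50 nM array lay below every vehicle array (log2 fold change -0.44 ± 0.09 SE, adjusted p = 0.00243). At 4 weeks it read 5099, 5104 and 4687 with vehicle, 5302, 5499.7 and 6328 with 5 nM and 5113, 5294 and 4555 with 50 nM, with no call. Another, 217672_x_at, read 129, 216 and 108 with vehicle, 86.7, 128 and 108 with 5 nM and 53.4, 70.3 and 73.2 with 50 nM at 1 week and fell (log2 fold change -1.15 ± 0.24 SE, adjusted p = 0.00296) with 50 nM. Its 4-week signals were 96.1, 139 and 145 with vehicle, 181, 216 and 262 with 5 nM and 182, 211 and 163 with 50 nM. They rose with 5 nM (log2 fold change 0.80 ± 0.24 SE, adjusted p = 0.0159), lost without 4w0 nM replicate 1 or 4w5 nM replicate 3 (log2 0.61 to 0.66), and with 50 nM the value was 0.56 ± 0.24 SE, adjusted p = 0.0678. EIF1B, a close copy of EIF1 at another locus, read 829.9, 821 and 804 with vehicle, 856, 708 and 949.8 with 5 nM and 1607, 1622 and 1213 with 50 nM at 4 weeks. The 50 nM arrays stood above both other groups (log2 fold change 0.84 ± 0.16 SE, adjusted p = 0.000507 against vehicle and 0.82 ± 0.16 SE, adjusted p = 0.00257 against 5 nM), and the call against vehicle held in every fit without 1 array. EIF1AX had 4 probe sets with different results at 4 weeks, from -0.43 (201019_s_at, called with 5 nM) to 0.42 (201018_at, called with 50 nM). In 1w50 nM 1 of the 4 was called lower, and their values lay between -0.43 and 0.13. A Y-linked near-copy and EIF1B share much of their sequence with EIF1AX and EIF1, and cross-hybridization was not tested.

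EIF5, which makes eIF2 hydrolyse its GTP, fell with 50 nM at 1 week on 3 of its 5 probe sets, and 2 of these rose with 50 nM at 4 weeks. On 208290_s_at the signals at 1 week were 1171, 1166 and 1249 with vehicle, 808, 627 and 876 with 5 nM and 507, 530 and 753 with 50 nM. Both doses fell without overlap (log2 fold change -0.65 ± 0.18 SE, adjusted p = 0.0333 with 5 nM and -1.02 ± 0.18 SE, adjusted p = 0.000866 with 50 nM), the first lost without 1w0 nM replicate 1 or 1w5 nM replicate 1 or 2 (log2 -0.69 to -0.51). At 4 weeks it read 931, 971 and 829.6 with vehicle, 1265, 988 and 774 with 5 nM and 1305, 1193 and 1088 with 50 nM, and neither dose was called. On 208706_s_at 4w50 nM rose (log2 fold change 0.66 ± 0.11 SE, adjusted p = 0.000148), and 208708_x_at rose (log2 fold change 0.60 ± 0.16 SE, adjusted p = 0.00562). In 1w50 nM 208706_s_at had fallen (log2 fold change -0.39 ± 0.11 SE, adjusted p = 0.0149), a call lost without 1w50 nM replicate 1 (log2 -0.34), and so had 208708_x_at (log2 fold change -0.72 ± 0.16 SE, adjusted p = 0.00426). With 5 nM at 4 weeks, however, 208705_s_at fell (log2 fold change -0.44, adjusted p = 0.00606) and 208707_at rose (log2 fold change 0.49, adjusted p = 0.0469), so the probe sets of this gene were called in both directions.

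EIF5A, which helps ribosomes past difficult stretches and carries the modified residue hypusine, fell in 4w50 nM. Probe set 201123_s_at read 3315, 2836 and 2612 with vehicle, 2849, 3049 and 1914 with 5 nM and 2164, 1898 and 2322 with 50 nM at 4 weeks. Its 50 nM arrays lay below vehicle (log2 fold change -0.45 ± 0.15 SE, adjusted p = 0.0223), a call lost without 4w0 nM replicate 1 or 4w50 nM replicate 1 or 2 (log2 -0.47 to -0.36). At 1 week it read 2780.2, 2672 and 2108 with vehicle, 2614, 2981 and 2695 with 5 nM and 2763, 2409 and 2835 with 50 nM. 213753_x_at fell (log2 fold change -0.59 ± 0.17 SE, adjusted p = 0.00887), and on 201122_x_at the value was -0.30 (adjusted p = 0.0759). EIF5B had 1 called probe set in 1w50 nM, 214313_s_at. It read 79.7, 80.6 and 21.7 with vehicle, 22.3, 50.3 and 32.9 with 5 nM and 22.5, 25.9 and 14.2 with 50 nM at 1 week and 37.2, 54.8 and 52.7 with vehicle, 88.9, 64.4 and 31.0 with 5 nM and 56.0, 71.7 and 69.3 with 50 nM at 4 weeks. The groups of 1 week overlapped, and the value (log2 fold change -1.30 ± 0.44 SE, adjusted p = 0.0444) was lost in 13 of the 18 fits without 1 array (log2 -1.45 to -0.98). Its other 4 tested probe sets were not called at 1 week, and 201024_x_at fell in 4w5 nM (log2 fold change -0.34, adjusted p = 0.0367). EIF5A2, a relative of EIF5A, rose in 4w5 nM (log2 fold change 0.49, adjusted p = 0.0419). EIF6, which keeps the ribosomal subunits apart, was called with neither dose.

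The main elongation factors were called in no dose comparison. EEF1A1, which carries aminoacyl-tRNA to the ribosome, read 9527, 9736 and 9875 with vehicle at 1 week, 9286, 9939 and 9094 with 5 nM and 9499.7, 9481 and 9645 with 50 nM on 204892_x_at. At 4 weeks it read 9942, 10118 and 10026 with vehicle, 10038, 9847 and 9605 with 5 nM and 9647, 10129 and 9899 with 50 nM. Over its 4 probe sets the log2 fold changes against vehicle lay between -0.13 and 0.07, and none was called. On 204892_x_at the value in 4w50 nM was -0.02 ± 0.04 (SE). The highest value in the table is 11258.4, and whether signals near it are compressed was not tested. EEF2, the translocase, was 4683 ± 182 (SD, n = 3) with vehicle at 4 weeks on 200094_s_at, 4858 ± 344 with 5 nM and 5129 ± 304 with 50 nM, and neither of its probe sets was called. EEF1A2, the neuronal and muscle form, read 24.9, 30.4 and 23.9 with vehicle at 1 week, 47.2, 83.9 and 44.2 with 5 nM and 65.6, 65.2 and 43.6 with 50 nM, and 31.3, 38.9 and 30.1 with vehicle, 18.7, 25.4 and 49.2 with 5 nM and 31.7, 42.7 and 32.4 with 50 nM at 4 weeks. It reached 50 on only 3 arrays, all of them rotenone arrays of 1 week, so it entered the test through the groups where it was high. This entry favoured its calls there (1.09 ± 0.31 SE, adjusted p = 0.0412 and 1.12 ± 0.31 SE, adjusted p = 0.0158), which are therefore no independent evidence of a rise. The first was lost in 11 of the 18 fits without 1 array (log2 0.80 to 1.22) and the second without 1w50 nM replicate 1 or 2 (log2 1.02 to 1.03).

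EEF1D, a subunit of the factor that reloads eEF1A with GTP, gave opposite calls on different probe sets in 4w50 nM. Probe set 203113_s_at read 3153, 3242 and 3001 with vehicle, 3112, 3665 and 3741 with 5 nM and 2526, 2509 and 2302 with 50 nM at 4 weeks and fell (log2 fold change -0.36 ± 0.12 SE, adjusted p = 0.0279). By contrast, 213087_s_at read 82.4, 77.8 and 87.7 with vehicle, 137, 136 and 150 with 5 nM and 121, 125 and 108 with 50 nM and rose (log2 fold change 0.77 ± 0.17 SE, adjusted p = 0.0025 and 0.51 ± 0.17 SE, adjusted p = 0.0232), the second lost without replicate 1 or 2 of 4w0 nM or of 4w50 nM (log2 0.47 to 0.51). Between the doses at 4 weeks 203113_s_at and 214394_x_at were lower with 50 nM (-0.52 and -0.34). In 1w50 nM 1 of the 4 EEF1D probe sets rose (log2 fold change 0.27), and the others had negative values. Of the methyltransferases of elongation factors, EEF1AKMT3 read 121, 154 and 143 with vehicle, 156, 155 and 167 with 5 nM and 149.6, 144 and 168 with 50 nM at 1 week and 138, 149.9 and 145 with vehicle, 165, 167 and 209 with 5 nM and 169, 174 and 146 with 50 nM at 4 weeks, and neither it nor EEF2KMT was called with either dose.

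Probe sets of 1 gene often differed. Of the 23 genes with several tested probe sets, 15 had at least 1 called in 4w50 nM, 3 had all called in one direction and 1 (EEF1D) had calls in both. With 5 nM at 4 weeks these counts were 13, 3 and 1 (EIF5). The part of probe position and cross-hybridization in this was not tested.

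**Figure D4:**
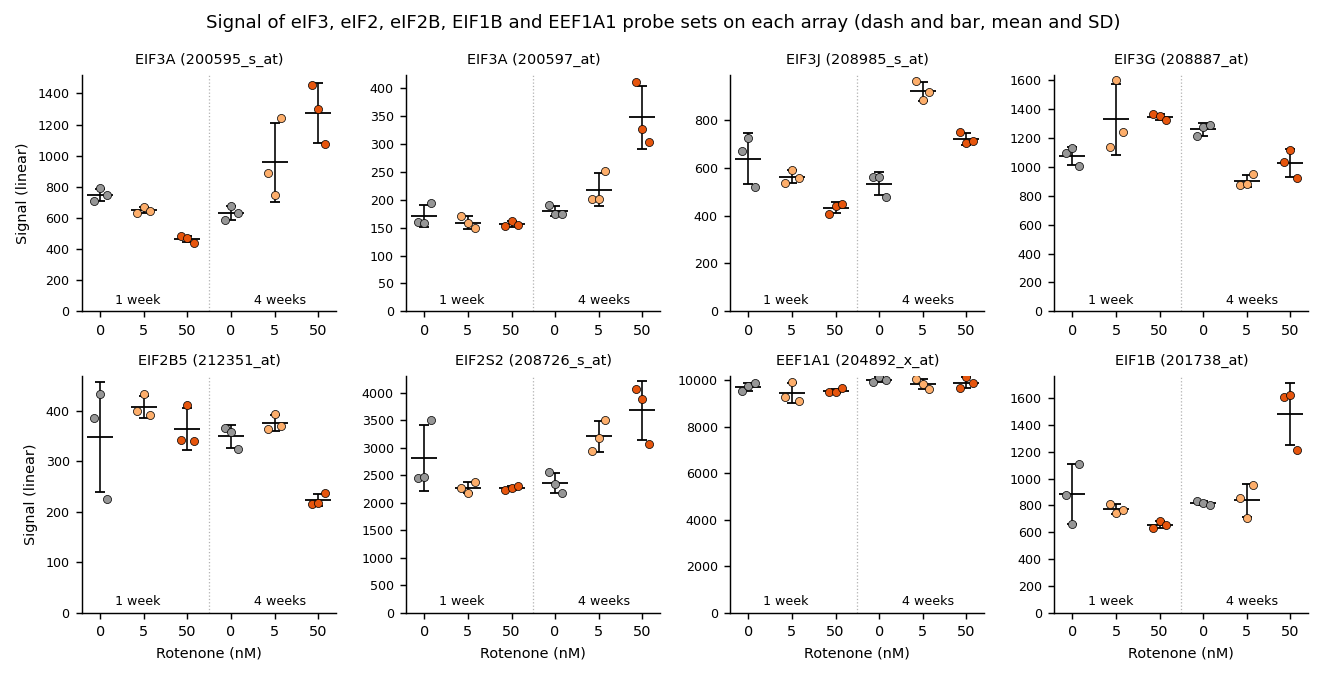
Signal (linear, from 0) on each array for the 2 dimmer probe sets of EIF3A and 1 each of EIF3J, EIF3G, EIF2B5, EIF2S2, EEF1A1 and EIF1B, by rotenone dose in nM at 1 week (left) and 4 weeks (right). Points are arrays, dashes and bars the mean and SD of 3. EIF2B5 in 4w50 nM reads 215 to 237, below every other 4-week array, and EEF1A1 stays within 9094 to 10129.

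Members called at both weeks turned around, as did nearly all probe sets called at both weeks. With 50 nM, 8 members were called at both weeks, and all 8 were lower at 1 week and higher at 4 weeks. Over all tested probe sets 1935 were called at both weeks, of which 96.2% had opposite directions and 66.0% went from lower to higher, so the turn is not particular to the members. The difference between the effects of 50 nM at 4 weeks and at 1 week was called higher for 26 members and lower for 14, against 24.8% and 19.6% of all probe sets. For 5 nM it was 19 and 10, against 14.9% and 16.9%, which became 24 and 3 under median scaling. With 5 nM, 1 member was called at both weeks, again lower first and then higher (201435_s_at of EIF4E), while 97.4% of the 587 probe sets called at both weeks turned. When the vehicle of 4 weeks replaced that of 1 week, 5 members were called in 1w50 nM in place of 21, all of them lower, and limma called none in 1w5 nM in place of 5, where 5 had an unadjusted p below 0.05. In that setting the 50 nM values at 1 week were -0.45 (adjusted p = 0.0623) for EIF4E on 201437_s_at, -0.46 (adjusted p = 0.151) on 201435_s_at and -0.44 (adjusted p = 0.0985) for EIF3A on 200595_s_at, and those of EIF2AK2 were 0.15 with 5 nM and 0.14 with 50 nM. With the 1-week arrays exchanged, the 50 nM calls at 1 week of EIF3A on 200595_s_at (-0.49, adjusted p = 0.0807), EIF3J on 208985_s_at (-0.41, adjusted p = 0.061), EIF5 on 208706_s_at (-0.34, adjusted p = 0.0507) and EIF5B on 214313_s_at (-0.75, adjusted p = 0.274) were lost, while both 50 nM calls of EIF4E were kept. Without 1w5 nM replicate 2 the difference between weeks with 5 nM was called for 19 members in place of 29.

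**Figure D5:**
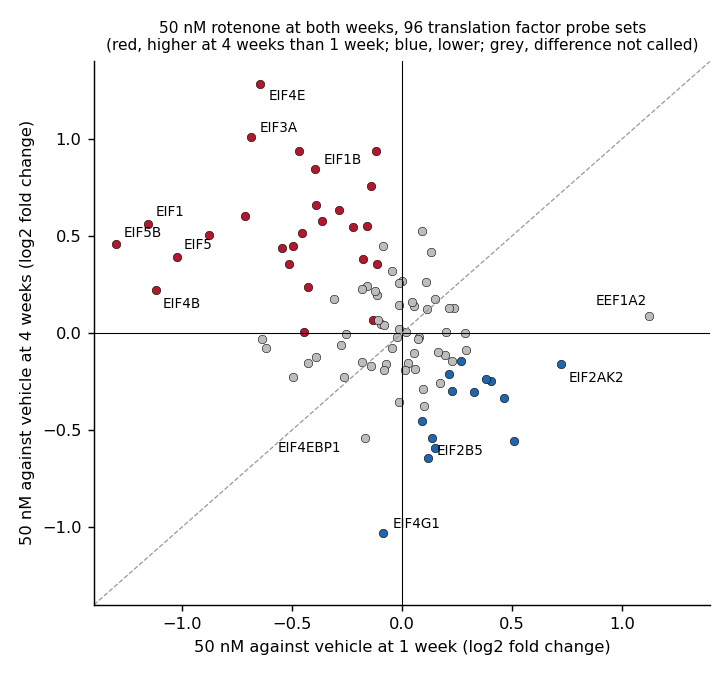
Log2 fold change of 50 nM against vehicle at 1 week (horizontal) and at 4 weeks (vertical) for the 96 tested member probe sets, with the line of equal effect dashed; red marks a called difference with the effect higher at 4 weeks (26), blue lower (14), grey not called. EIF4E at -0.65 and 1.28 and EIF3A at -0.69 and 1.01 lie at the upper left, EIF4G1 at -0.09 and -1.03 at the bottom.

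Between the doses at 4 weeks, 5 genes were called with at least 1.5-fold, and the 20 tested genes nearest to each were counted. EIF4G1 and EIF2B5 are near each other on chromosome 3 and share 12 of these genes. Of the 26 genes near either, both members left out, 9 were lower with 50 nM than with 5 nM and none was higher, while over the whole chromosome 27.1% of 753 probe sets were higher and 10.1% lower. EIF1B, which was higher with 50 nM, is also on chromosome 3, and of its 20 nearest genes 11 were higher and 1 lower. EIF4EBP1, EIF3E, EIF3H and EEF1D are on chromosome 8, where 44.5% of 521 probe sets were lower with 50 nM than with 5 nM and 2.11% higher. Of the 20 genes nearest EIF4EBP1, 12 were lower and none higher. EIF3A on chromosome 10, higher with 50 nM than with 5 nM, had 3 higher and 1 lower of 20. Against vehicle at 4 weeks, neighbours went with some of the members changed by 50 nM and against others. Those of EIF3A were 10 higher and 2 lower, where 31.9% of the probe sets of chromosome 10 rose and 9.65% fell. Neighbours of EIF4E on chromosome 4 were 7 higher and 3 lower, where 40.2% of 465 probe sets of that chromosome rose and 7.74% fell. On chromosome 3, 30.1% of probe sets rose and 11.3% fell. There EIF4G1 had 1 higher and 10 lower neighbours and EIF2B5 had 2 higher and 9 lower, each counting the other. EIF1B had 7 higher and 3 lower. EIF4B and EIF2S2 rose on chromosomes 12 and 20, with 4 higher and 6 lower and with 3 higher and 4 lower neighbours. On these chromosomes 26.2% and 22% of probe sets rose and 15.4% and 17.3% fell. EIF5, with 2 probe sets that rose, had 1 higher and 3 lower, and EIF5A, with 2 that fell, had 3 higher and 5 lower. They lie on chromosomes 14 and 17, where 30% and 12.7% of probe sets rose and 11.2% and 21.2% fell. The part of these neighbourhoods in the results was not tested.

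Beyond the factors named by the rule, 19 regulators of initiation were on the array, and 5 rose with each dose at 4 weeks. Of all probe sets, 17.7% and 22.3% rose there with 5 and 50 nM. In 4w5 nM 1 regulator fell, BZW2 (log2 fold change -0.65, adjusted p = 0.00176), and none fell in 4w50 nM, where 14.2% and 17.9% of all fell. At 1 week 2 rose and 1 fell with 5 nM (all probe sets, 5.08% and 1.93%). With 50 nM 1 rose and 3 fell (8.39% and 13.2%). DHX29 rose in 4w5 nM (log2 fold change 0.78, adjusted p = 0.0178). ABCE1, which recycles ribosomes after termination, had a log2 fold change of 0.68 (adjusted p = 0.000831) with 5 nM and 0.79 (adjusted p = 0.000158) with 50 nM at 4 weeks and -0.91 (adjusted p = 0.000247) with 50 nM at 1 week. LARP1, which binds messages with pyrimidine starts, rose at 4 weeks, with a log2 fold change of 0.47 (adjusted p = 0.00554) with 5 nM and 0.45 (adjusted p = 0.00532) with 50 nM. DDIT3, a stress gene made when eIF2 is phosphorylated, was 368 ± 19.4 (SD, n = 3) with vehicle at 4 weeks, 691 ± 589.8 with 5 nM and 1465 ± 802 with 50 nM. Its log2 fold change was 1.78 (adjusted p = 0.0112) with 50 nM and 0.59 (adjusted p = 0.413) with 5 nM. At 1 week DDIT3 was 1241 ± 854 with vehicle, near the 4w50 nM level, 475 ± 72.6 with 5 nM and 511 ± 40.5 with 50 nM, and neither dose was called, with log2 fold changes of -1.17 (adjusted p = 0.182) and -1.05 (adjusted p = 0.156). For ATF4, its activator, the values at 4 weeks were 0.50 (adjusted p = 0.0138) with 5 nM and 0.26 (adjusted p = 0.168) with 50 nM. After 1 week ATF4 fell with 50 nM (-0.42, adjusted p = 0.0459) and was not called with 5 nM (-0.33, adjusted p = 0.178). The release factors ETF1 and GSPT2 rose with both doses at 4 weeks, with 0.61 (adjusted p = 0.00857) and 0.93 (adjusted p = 0.000289) for ETF1, and GSPT1 was not called. Of the enzymes that make hypusine on eIF5A, DHPS rose with 5 nM (0.59, adjusted p = 0.00891) and DOHH fell with 50 nM (-0.64, adjusted p = 0.017) at 4 weeks. Of 5 mitochondrial translation factors tested, 1 rose and 1 fell with each dose at 4 weeks.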

How the data were processed

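Total RNA of SK-N-MC cultures was measured on 18 Affymetrix arrays, 3 in each of 6 groups of dose and week. The deposited values are linear intensity values that the authors computed and normalized with dChip (model-based expression index), from 0.46 to 11258.4; the normalization and the version are not given in the sources used here. Of 22283 probe sets, 68 controls were left out, 19071 of the rest have 1 gene symbol and 1043 have several in the platform annotation, and those with several genes are not members. Array medians lay between 87.15 and 101.58, and the number of arrays limits the precision.

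Signals below 16 were set to 16 and taken to log2. Probe sets that read 50 or higher on 3 or more arrays were fitted with limma 3.58.1 (R 4.3.3), with 1 mean for each of the 6 groups, an intensity trend, and 12 residual and 5.774 prior degrees of freedom. P-values of each comparison were adjusted by Benjamini-Hochberg over all 15572 probe sets, and calls were made below 0.05. A fold change of a probe set near the minimum of 16 is understated on this scale. In tests on simulated data for 50 nM against vehicle at 4 weeks, run on 15572 probe sets, 23 of 67 changes of 1.5-fold, 54 of 67 of 2-fold and 63 of 66 of 3-fold were called, with 11 false calls. No other probe set was changed in the simulation, and its noise was drawn independently. In the real comparison 40.2% of all probe sets were called, so these rates do not describe it.

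The members and lists were chosen with earlier results of these data known. Values on every array were planned for the 12 largest called changes of at least 1.5-fold, EIF4E, EEF1A2 and the brightest probe set of each complex, and those of EIF2B5, EIF1B, EIF3J, EIF3G, EIF2AK2, EEF1D and EIF4B (211938_at) were added after their values were seen. The exchange of 2 arrays and the use of 4w0 nM as vehicle for 1 week were also chosen after seeing the data. Replicate numbers did not pair the arrays by their deviations from the group means. Promoter and start sequences are from RefSeq on GRCh38.p14, and 37 of 49 member genes matched by symbol or gene identifier.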

Additional observations from a re-analysis of the deposited data

Results flagged for a closer look

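Of the 20 probe sets planned to be shown on every array, the effect of rotenone differed between the weeks for 13 with 50 nM and 11 with 5 nM, by limma's test of the difference of the log2 fold changes (4 weeks minus 1 week). Over all probe sets this test called 44.4% and 31.7%, and as 12 of the 20 were chosen for large called changes, the counts are a description only. For 50 nM the difference was 1.93 (adjusted p = 1.48e-06), 1.41 (adjusted p = 0.00148) and 1.38 (adjusted p = 0.000377) on 201437_s_at, 201436_at and 201435_s_at of EIF4E, and 1.69 (adjusted p = 1.13e-05) and 1.06 (adjusted p = 0.00032) on 200595_s_at and 200597_at of EIF3A. It was 1.72 (adjusted p = 0.000544) and 0.45 (adjusted p = 0.00764) on 217672_x_at and 211956_s_at of EIF1, 1.42 (adjusted p = 0.000197) for EIF5 on 208290_s_at, 1.34 (adjusted p = 0.000286) for EIF4B on 219599_at and 0.92 (adjusted p = 0.000465) for EIF2S2 on 208726_s_at. EIF4G1 on 208624_s_at and EIF5A on 201123_s_at differed in the other direction, by -0.94 (adjusted p = 0.0283) and -0.54 (adjusted p = 0.0455). EIF5B on 214313_s_at gave 1.76 (adjusted p = 0.0304), on a probe set below the signal minimum on many arrays.

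For 5 nM the difference was 1.30 (adjusted p = 0.00013), 0.98 (adjusted p = 0.0234) and 1.20 (adjusted p = 0.00215) on 201437_s_at, 201436_at and 201435_s_at of EIF4E. It was 1.24 (adjusted p = 0.00969) and 0.47 (adjusted p = 0.00919) on 217672_x_at and 211956_s_at of EIF1, 0.88 (adjusted p = 0.0115) for EIF4B on 219599_at and 0.78 (adjusted p = 0.0112) for EIF3A on 200595_s_at. EIF5 on 208290_s_at gave 0.77 (adjusted p = 0.0249) and EIF2S2 on 208726_s_at gave 0.73 (adjusted p = 0.00477). EIF2AK1 on 217736_s_at differed by -0.41 (adjusted p = 0.0315), and EEF1A2 on 204540_at, which passed the minimum only through 1-week rotenone arrays, by -1.31 (adjusted p = 0.0306).

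Leaving out 1 array ended some of these calls. For 50 nM, EIF5A lost its call in 10 of 18 such fits (-0.56 to -0.42), EIF5B in 6 (1.44 to 1.72) and EIF4G1 on 208624_s_at without 1w50 nM replicate 3, 4w0 nM replicate 1 or 4w50 nM replicate 2 (-0.92 to -0.79). For 5 nM, EEF1A2 and EIF2AK1 lost it in 5 each (-0.41 to -0.32 for the latter), EIF4E on 201436_at in 4 (0.77 to 0.94) and EIF5 in 3 (0.59 to 0.70).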

How the results depend on the processing

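Counts of called members rested on how the fit was made, and the cause was not tested in any setting. Under these settings the share of all probe sets called was not counted. Whether the counts moved more or less than those of other probe sets is therefore not known. Over the fits that left out 1 array, the counts ranged from 1 to 8 for 5 nM at 1 week (5 with all arrays), from 11 to 31 for 50 nM at 1 week (21), from 12 to 35 for 5 nM at 4 weeks (26), from 19 to 37 for 50 nM at 4 weeks (32) and from 6 to 24 for 50 nM against 5 nM at 4 weeks (14). They ranged from 0 to 2 for 50 nM against 5 nM at 1 week (0) and from 0 to 4 between the vehicles (1), where 15 had an unadjusted p below 0.05. For the difference between weeks they ranged from 19 to 36 with 5 nM (29) and from 32 to 46 with 50 nM (40). With 1 probe set per gene, and thus 48 features, 3, 9, 11, 13 and 8 were called for 5 and 50 nM at 1 week, 5 and 50 nM at 4 weeks and between the doses at 4 weeks, 0 between the vehicles, and 13 and 17 for the differences between weeks with 5 and 50 nM. Array weights, whose estimation stopped before it converged, gave 2 for 5 nM at 1 week, 54 for each dose at 4 weeks, 38 and 19 between the doses at 4 weeks and at 1 week, and 0 between the vehicles. Fitting each comparison on its own arrays alone, the counts were 0 for 5 nM (14 at an unadjusted p below 0.05) and 6 for 50 nM at 1 week, 6 and 2 between the doses at 4 weeks and at 1 week, and 0 between the vehicles. Without the signal minimum, 2 were called for 5 nM at 1 week, 17 for 5 nM at 4 weeks and 0 between the vehicles. Median scaling gave 8 for 5 nM at 1 week, and quantile normalization 2 between the vehicles. With 4w0 nM as vehicle for 1 week, 0 were called for 5 nM and 5 for 50 nM. The methods' t-test with p below 0.05 and a fold over 2 gave 0, 3, 1 and 3 for 5 and 50 nM at 1 week and 5 and 50 nM at 4 weeks, and 0 between the doses at 4 weeks and between the vehicles; after Benjamini-Hochberg without the fold it gave 0, 0, 6 and 6, and 0 for the same pair, where 12 members between the doses and 11 between the vehicles had an unadjusted p below 0.05. Exchanging the 2 arrays of 1 week left counts of 5, 22, 0, 25 and 43 for 5 and 50 nM at 1 week, their difference, and the differences between weeks.

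The replicate numbers do not mark shared cultures in the labels: of 45 same-numbered pairs of arrays, 11 had a correlation of deviations over 0.1 (median -0.03, range -0.49 to 0.35). With the replicate block the counts were 5, 19, 22, 31 and 12 for 5 and 50 nM at 1 week, 5 and 50 nM at 4 weeks and between the doses at 4 weeks, 0 between the doses at 1 week, 0 between the vehicles, and 27 and 40 for the differences between weeks. Calls of single probe sets were followed only for those planned to be shown on every array or called with at least 1.5-fold in a dose comparison. Of these 98 calls, 62 were kept in every fit without 1 array and 53 in every alternative run. None of their 2846 alternative values changed sign. Smaller calls of other members were not followed, so these shares do not hold for the members as a whole. Testing without the signal minimum ended, among others, the falls of EIF4G1 between the doses (adjusted p = 0.071 and 0.0581), of EIF5A (0.0563) and of EIF4EBP1 (0.0946) in 4w50 nM at unchanged fold changes, with more probe sets adjusted for. Signals of EEF1A2, EEF2KMT and 214313_s_at of EIF5B were near the signal minimum, which limits their values.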
